A study of Mus musculus with 16 samples.

Results

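The plasminogen activator system was followed through 5 genes, listed by name with earlier results of these data known: the activators Plat and Plau, the activator receptor Plaur, and the inhibitors Serpine2 and Serpini1. They are 5 of the 53857 genes in the table, and the level of each gene was the sum of its isoforms in FPKM, fragments per kilobase of transcript and M mapped reads. RNA came from primary cortical neuron cultures of wild-type mouse embryos at embryonic day 15. The 16 cultures fell into 4 groups of 4, numbered 1 to 16 across the groups. CONTROL-VEH (cultures 1 to 4) and OGD-VEH (9 to 12) had vehicle only, and CONTROL-TIA (5 to 8) and OGD-TIA (13 to 16) had 10 μM tianeptine (TIA), an antidepressant, from day in vitro 8, that is 24 h before the insult. On day in vitro 9 the OGD groups went through 3 h of oxygen-glucose deprivation, a culture model of ischemia, the controls had a sham procedure, and RNA was taken at 6 h of reoxygenation.

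Plasminogen activators are secreted serine proteases that cut plasminogen into plasmin, which digests fibrin and extracellular matrix. Tissue-type activator, encoded by Plat, is made by neurons and is also known for acting on NMDA receptors, and urokinase, encoded by Plau, works at the cell surface when bound to its receptor, encoded by Plaur. Serpins are suicide inhibitors that form a covalent complex with their protease. Neuroserpin, encoded by Serpini1, is a neuronal inhibitor of tissue-type activator, and protease nexin-1, encoded by Serpine2, inhibits thrombin and both activators.

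In GRCm38 coordinates, Plat lies on chromosome 8 from 22757727 to 22782844, Plau on chromosome 14 from 20836660 to 20843385, Plaur on chromosome 7 from 24462484 to 24475968 and Serpini1 on chromosome 3 from 75557547 to 75643495, all on the plus strand. Serpine2 lies on the minus strand of chromosome 1 from 79794197 to 79861180. RefSeq promoter sequences (GRCm38.p6) were at hand for 3 of the 5 genes and are shown because these genes include the largest rise and the only fall after OGD. Each run covers bases upstream of the start site that no annotated exon covers, and capitals mark an AP-1 motif, TGANTCA, searched on both strands. The Plaur run is chr7:24462233-24462482 on the plus strand, the Serpine2 run is chr1:79858697-79858915 on the minus strand, and the Serpini1 run is chr3:75557243-75557492 on the plus strand. The Serpine2 run lies inside the gene span given above, because its RefSeq start site, 79858665, lies within that span.
Plaur: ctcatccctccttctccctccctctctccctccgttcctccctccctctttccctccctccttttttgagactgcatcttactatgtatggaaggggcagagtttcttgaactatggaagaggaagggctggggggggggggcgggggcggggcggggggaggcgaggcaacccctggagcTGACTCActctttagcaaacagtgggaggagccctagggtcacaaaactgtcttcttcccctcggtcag
Serpine2: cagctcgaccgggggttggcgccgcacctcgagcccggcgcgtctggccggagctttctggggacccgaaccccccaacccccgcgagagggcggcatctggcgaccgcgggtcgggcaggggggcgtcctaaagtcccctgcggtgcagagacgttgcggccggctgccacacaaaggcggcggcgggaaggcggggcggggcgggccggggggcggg
Serpini1: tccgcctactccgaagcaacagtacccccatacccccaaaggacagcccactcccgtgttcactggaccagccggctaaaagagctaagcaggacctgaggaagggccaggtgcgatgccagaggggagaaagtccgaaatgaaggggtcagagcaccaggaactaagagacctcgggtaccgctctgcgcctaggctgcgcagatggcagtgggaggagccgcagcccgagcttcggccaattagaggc

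The Plaur run held TGACTCA from -69 to -63 relative to the start site, and the Serpine2 and Serpini1 runs held no match. TGANTCA occurred in 7.81% of 32851 promoters of up to 300 bases. The CRE motif TGACGTCA (1.79% of promoters) and the core ACGTG of the hypoxia response element (19.6%) occurred in none of the 3 runs. These matches describe letters in the windows only.

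In unstressed cultures the inhibitors were far more abundant per length than the proteases. Serpine2 averaged 174 ± 14.9 FPKM (SD, n = 4) in CONTROL-VEH and Serpini1 71.8 ± 4.45 FPKM, which placed them at the 94.0 and 84.6 percentiles of 18050 detected protein coding genes. Plat averaged 16.2 ± 2.40 FPKM, at the 61.2 percentile. Plau and Plaur were close to the limit of detection, at 0.114 ± 0.0666 and 0.107 ± 0.112 FPKM, and their levels in control cultures came from an estimated 2.02 to 10.0 reads for Plau and 1.09 to 5.43 reads for Plaur. The order of Plau and Plaur therefore did not differ beyond the spread, whereas the FPKM ranges of Serpine2, Serpini1 and Plat were separate. The sums include short coding isoforms, of 696 and 822 bases for Serpine2 (78.5 and 28.4 FPKM) and 779 bases for Serpini1 (30.6 FPKM). In estimated reads Serpine2 (4459 to 6128 in CONTROL-VEH) and Serpini1 (3621 to 4642) overlapped.

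Before the members' changes, the whole table gives their setting. Estimated depth was 19.7 to 25.6 M reads per culture. It was read from the smallest step of FPKM, which carries any scaling of the values, so it need not equal the number of aligned reads. Neuronal markers summed to 1975 to 2657 FPKM in the vehicle controls and 1027 to 1845 FPKM in OGD-VEH, with 1 of 8 called lower (Syt1). Oligodendrocyte lineage markers summed to 131 to 166 FPKM in the vehicle controls and 202 to 455 FPKM in OGD-VEH. Of these 6 markers, 4 were called higher. Astrocyte markers summed to 465 to 733 FPKM in the vehicle controls and 634 to 1671 FPKM in OGD-VEH. Of these 6, 0 were called by limma and 3 had an unadjusted p under 0.05. Over all 16405 genes tested, 4.06% were called and 5739 had an unadjusted limma p under 0.05. The 6 microglial markers stayed at or under 3.03 FPKM and the 5 endothelial markers at or under 1.37 FPKM in every culture, and the fibroblast and mural markers at 6.79 to 17.8 FPKM. The part of these marker differences in the results that follow was not tested. In bulk RNA fewer cells of a type and less RNA per cell cannot be told apart.

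After OGD with vehicle, Plat, Plaur and Serpine2 passed the adjusted threshold in the higher direction, each by a margin that did not outlast most changes of the culture set. Plau, below the expression filter, and Serpini1, the only member with lower values, did not pass it. In limma fits on log2(FPKM + 0.1), limited to genes averaging 0.5 FPKM or more in the cultures compared, 4 of the 5 members passed the filter, 3 had an adjusted p of at most 0.05 and 1, Plaur, also had a log2 fold change of at least 1, the combination referred to as called. Plaur passed the filter only through the OGD-VEH cultures, where it was high, so its place in these counts followed from its difference and the counts support nothing by themselves. Of all 16405 genes tested, 8.39% met the adjusted threshold and 4.06% were called. In all 5 members the OGD-VEH and CONTROL-VEH cultures did not overlap, against 22.7% of all genes tested. Plau is outside that tested set and Plaur entered it only through OGD-VEH, so only Plat, Serpine2 and Serpini1 compare with this share. The members were also listed with earlier results known, so the comparison is a description. The p-values measure the spread between these cultures, and with 4 against 4 the exact permutation test cannot go below 0.0286.

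Plat was 19.0, 16.4, 16.3 and 13.1 FPKM in CONTROL-VEH cultures 1 to 4 and 23.0, 31.1, 28.0 and 46.2 FPKM in OGD-VEH cultures 9 to 12. The lowest OGD-VEH culture stood above the highest control, and culture 12 was the highest of all 16. The log2 fold change was 0.94 (SE 0.22, limma adjusted p = 0.0436), or 1.92-fold, and the two-sided exact permutation p was 0.0286. The adjusted p was 0.0842 with no filter and 0.0631 to 0.117 when any culture other than 9 was left out. Its longest coding isoform made up 92.7 to 98.6% of the gene in every culture.

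Plau was 0.074, 0.205, 0.122 and 0.056 FPKM in the vehicle controls and 0.264, 0.531, 0.670 and 1.10 FPKM in OGD-VEH, from an estimated 11.9 to 57.4 reads in the latter. All 4 OGD-VEH cultures were above every control. Plau fell under the expression filter, and without that filter its log2 fold change was 1.71 (SE 0.42) with a limma adjusted p of 0.0899.

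Plaur, which concentrates urokinase at the cell surface, was 0.270, 0.034, 0.092 and 0.032 FPKM in the vehicle controls and 0.551, 2.43, 1.09 and 1.91 FPKM in OGD-VEH. Its OGD-VEH values rested on an estimated 17.3 to 68.7 reads. The log2 fold change was 2.90 (95% interval 1.65 to 4.15, limma adjusted p = 0.0342). With no filter on low values, which does not depend on the OGD-VEH level, the adjusted p was 0.0657 and Plaur was not called. The call also rested on the full set of cultures: leaving out culture 9 kept it, with an adjusted p of 0.00572, and leaving out any of the other 7 in turn gave 0.0657 to 0.105.

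Serpine2, the thrombin and activator inhibitor, was 163, 172, 196 and 166 FPKM in the vehicle controls and 201.4, 314.7, 315.1 and 379 FPKM in OGD-VEH. Culture 9 lay just above the highest control and the other 3 lay far above it. The log2 fold change was 0.76 (SE 0.18, limma adjusted p = 0.0447). The adjusted p was 0.0893 with no filter, 0.0531 with the longest coding isoform alone and 0.0781 to 0.121 when any culture other than 9 was left out. Its most abundant coding isoforms, of 2210 and 696 bases, averaged 66.9 and 78.5 FPKM in the vehicle controls and 107 and 138 FPKM in OGD-VEH. A coding isoform of 822 bases was at 1.31 FPKM in culture 7 and 0.009 FPKM in culture 14, and it was 23.4 to 79.9 FPKM in the other 14 cultures.

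Serpini1, the neuronal inhibitor of tissue-type activator, was the only member with lower values after OGD: 71.2, 69.0, 68.8 and 78.3 FPKM in CONTROL-VEH against 57.5, 23.5, 34.5 and 10.98 FPKM in OGD-VEH. Culture 9 was nearest to the controls and culture 12 farthest. The log2 fold change was -1.42 (95% interval -2.40 to -0.44), with a limma adjusted p of 0.0642 and an exact permutation p of 0.0286. Of its coding isoforms, that of 4091 bases averaged 40.6 FPKM in the vehicle controls and 22.3 FPKM in OGD-VEH, and a short one of 779 bases averaged 30.6 and 8.81 FPKM and was listed at 0 in cultures 10 and 12. With the longest coding isoform of each member alone, an alternative chosen after the data were seen, the log2 fold change of Serpini1 was -0.97 (limma adjusted p = 0.0685). The plot of the members' levels by culture shows this opposite movement.

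**Figure D1:**
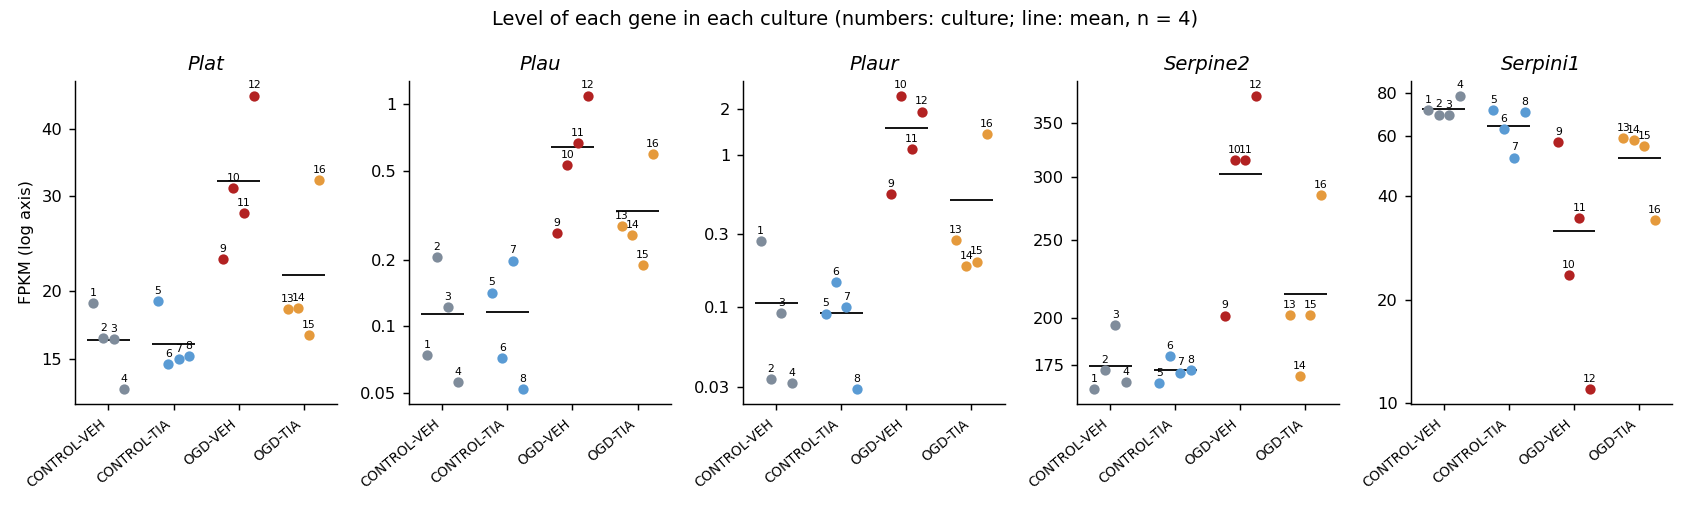
Summed FPKM (log axes) of the 5 members in each of the 16 cultures by group, with group means. OGD-VEH cultures lay above all CONTROL-VEH cultures in 4 members and below them in Serpini1, and culture 16 stood apart from the other OGD-TIA cultures in Plat, Plaur and Serpini1.

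**Figure D2:**
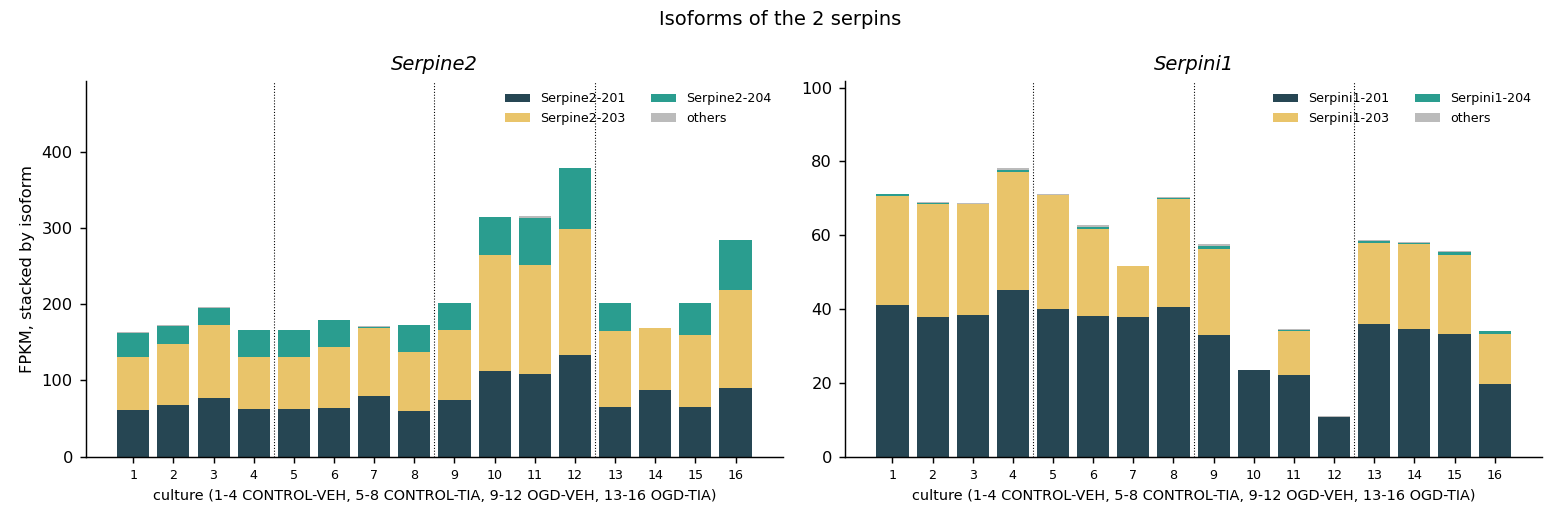
FPKM of Serpine2 and Serpini1 in each of the 16 cultures, stacked by isoform from an axis that starts at 0, with dotted lines between the groups. The 779-base isoform of Serpini1 (yellow) was listed at 0 in cultures 10 and 12, and the 822-base isoform of Serpine2 (green) was near 0 in cultures 7 and 14.

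With TIA the same insult gave smaller differences, and 0 members were called by limma, as were 0.0% of the 16299 genes tested; none of the 3 members that passed the filter had an unadjusted p under 0.05, against 19.5% of genes. Plau and Plaur were under the filter here and were read without it, with unadjusted limma p of 0.0234 and 0.0398. No member met the adjusted threshold alone, again 0.0% of genes. Plaur alone did not overlap between OGD-TIA and CONTROL-TIA, against 16.2% of all genes tested, a set that does not hold Plaur. It was 0.091, 0.146, 0.1 and 0.029 FPKM in CONTROL-TIA and 0.276, 0.186, 0.199 and 1.36 FPKM in OGD-TIA, a log2 fold change of 1.32 (limma adjusted p = 0.362 without the filter) that became 0.77 without culture 16.

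Plat was 19.2, 14.6, 15.0 and 15.1 FPKM in CONTROL-TIA and 18.5, 18.6, 16.6 and 32.1 FPKM in OGD-TIA, with a log2 fold change of 0.38 (95% interval -0.10 to 0.86). Plau was 0.142, 0.072, 0.198 and 0.052 FPKM in CONTROL-TIA and 0.284, 0.258, 0.189 and 0.597 FPKM in OGD-TIA, with a log2 fold change of 0.97. Both genes overlapped between the groups, and culture 16 held the highest OGD-TIA value in each.

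Serpine2 was 166, 179, 171 and 172 FPKM in CONTROL-TIA and 202, 169, 202 and 285 FPKM in OGD-TIA, with a log2 fold change of 0.29 (95% interval -0.04 to 0.62). Serpini1 was 71.3, 62.7, 51.7 and 70.3 FPKM in CONTROL-TIA and 58.8, 58.3, 55.8 and 34.1 FPKM in OGD-TIA, with a log2 fold change of -0.33 (95% interval -0.78 to 0.12). These intervals hold 0, so neither a change nor its absence was shown.

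Averaged over both arms on all 16 cultures, the 4 members that passed the filter had a limma adjusted p of at most 0.05, against 32.4% of 16370 genes, and 1, Plaur, was called, against 4.78%. Plaur passed the filter here too only through the OGD-VEH cultures, so these counts are given as a description. The averaged log2 fold changes were 2.11 for Plaur (SE 0.40, adjusted p = 0.00297), 0.66 for Plat (SE 0.16, adjusted p = 0.00805), 0.53 for Serpine2 (SE 0.12, adjusted p = 0.00700) and -0.87 for Serpini1 (SE 0.25, adjusted p = 0.0186). Plau, read without the filter, had 1.34 (SE 0.27, adjusted p = 0.00802). The exact permutation p over 4900 assignments within arms ran from 0.000408 for Plaur to 0.00286 for Serpini1.

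**Figure D3:**
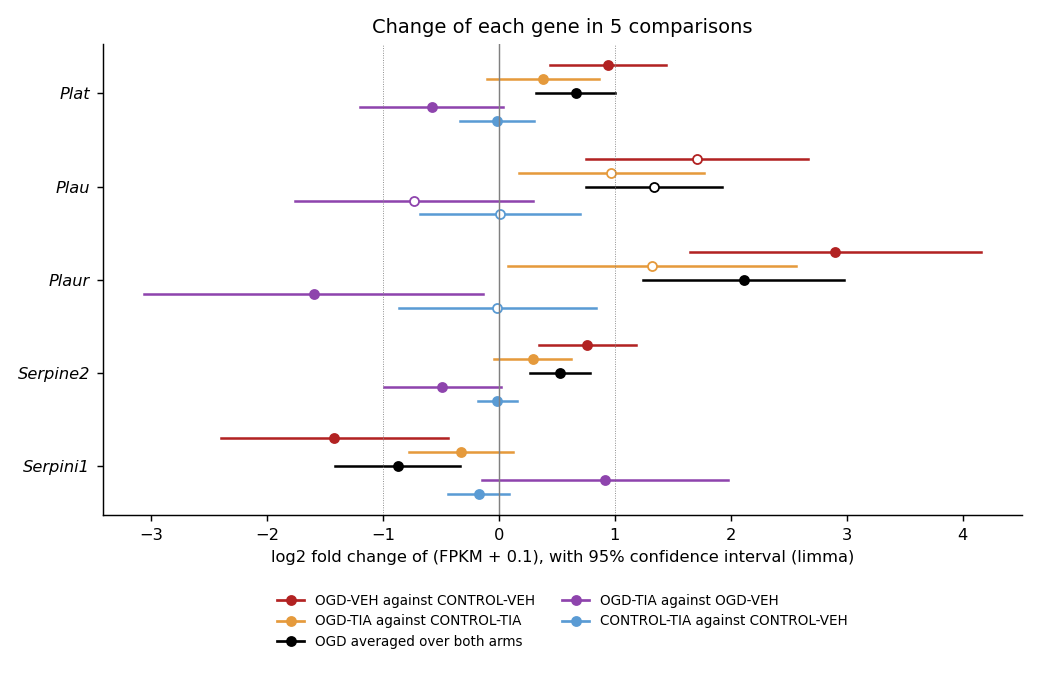
Log2 fold change of each member in each comparison, with 95% intervals from limma and open symbols for members read without the expression filter. The OGD effect with vehicle was largest for Plaur at 2.90 and negative for Serpini1 at -1.42.

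After OGD the members' mean levels lay nearer to control levels with TIA than with vehicle, but no difference from OGD-VEH was called. The log2 fold changes of OGD-TIA against OGD-VEH were -0.58 for Plat (95% interval -1.1997 to 0.04), -1.60 for Plaur (-3.06 to -0.13), -0.49 for Serpine2 (-0.99 to 0.02) and 0.91 for Serpini1 (-0.15 to 1.98), each with a limma adjusted p of 0.552. Plau, under the filter, gave -0.73 (-1.76 to 0.29). At an unadjusted p under 0.05 there was 1 member, Plaur, against 7.89% of genes, and 0.0% of genes met the adjusted threshold with or without the fold criterion. No member was free of overlap, against 3.78% of genes, and the exact permutation p was 0.0857 for Plaur and 0.114 to 0.171 for the others.

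The interaction test, which asks whether OGD acted differently in the 2 drug arms, called 0 members and 0.0% of genes. Serpini1 had an interaction of 1.09 on the log2 scale (95% interval 0.01 to 2.17, limma adjusted p = 0.723, with an unadjusted limma p of 0.0487), the only member under 0.05 before adjustment, against 6.06% of genes. The interactions of Plat, Plaur and Serpine2 were -0.56, -1.58 and -0.47. In the separate comparison of OGD-TIA with OGD-VEH, array quality weights gave 1 called member, Plaur at -2.20 (limma adjusted p = 0.0469). With these weights 402 of 16407 genes were called there, against 0 in the main fit.

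TIA alone moved no member detectably. The log2 fold changes of CONTROL-TIA against CONTROL-VEH were between -0.18 for Serpini1 and 0.01 for Plau, with 0 members called by limma or under 0.05 unadjusted, against 0.0% and 3.86% of 16222 genes. No member was free of overlap, against 2.07% of genes. The interval was narrowest for Serpine2, from -0.18 to 0.15, and wide for Plaur, from -0.86 to 0.84.

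The balance of activator to inhibitor transcripts was described by ratios of FPKM within each culture, without a test. Plat to Serpini1 was 0.168 to 0.267 in CONTROL-VEH, 0.215 to 0.289 in CONTROL-TIA, 0.399 to 4.21 in OGD-VEH and 0.297 to 0.943 in OGD-TIA. Serpine2 to Serpini1 was 2.12 to 2.85 in CONTROL-VEH and 3.502 to 34.5 in OGD-VEH, so with vehicle the inhibitors shifted towards Serpine2. This ratio was 2.33 to 3.31 in CONTROL-TIA and 2.90 to 8.35 in OGD-TIA, so those groups overlapped. Plat to Serpine2 stayed between 0.0791 and 0.122 in every culture. The ratios to Serpini1 depend on its isoforms. The 779-base isoform was listed at 0 in cultures 10 and 12, where Plat to Serpini1 was 1.32 and 4.21. Culture 10 had 23.5 FPKM of Serpini1 from an estimated 2134 reads, and culture 11 had 34.5 FPKM from 2246 reads. The part of the isoform split in these ratios was not tested.

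**Figure D4:**
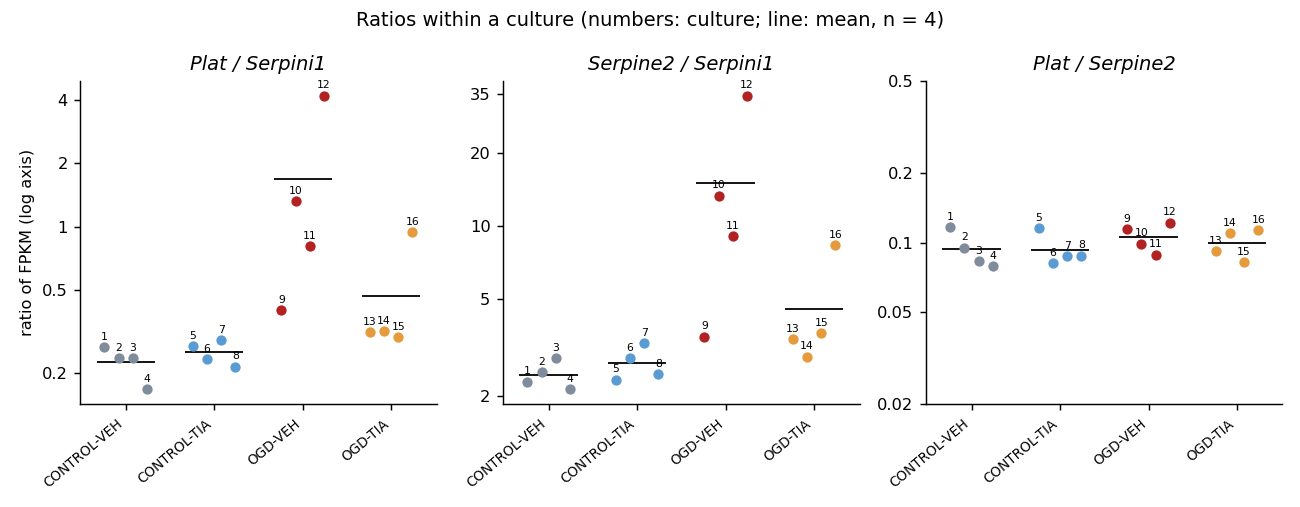
Ratios of FPKM within each culture (log axes) by group, for Plat to Serpini1, Serpine2 to Serpini1 and Plat to Serpine2. The ratios to Serpini1 reached 4.21 and 34.5 in OGD-VEH, while Plat to Serpine2 stayed between 0.0791 and 0.122. Both maxima are from culture 12, where the 779-base isoform of Serpini1 was listed at 0.

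Cultures 10, 11, 12 and 16 held the 4 most extreme values in all 5 members, the highest for Plat, Plau, Plaur and Serpine2 and the lowest for Serpini1. Of the OGD-VEH cultures, culture 9 lay nearest to the controls in all 5. The genes with the most similar profiles over the 16 cultures, by Pearson r among about 13278 coding genes, are a description in which all points share the same libraries and groups. Serpini1 was most like Frmpd4 (r = 0.989), Dlg2 (0.979) and Slc17a7 (0.979), the last a glutamate transporter in the neuronal marker list. Serpine2 was most like Pros1 (0.978), Plekhf2 (0.973) and Ntn1 (0.972), and Plat was most like Ticam1 (0.980), Fam98b (0.977) and Prdx1 (0.9753). Plaur was most like Rpl7a (0.970), Odc1 (0.963) and Hbegf (0.963), and Plau was most like Adgrg6 (0.968), Cebpb (0.963) and Sfn (0.961).

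Among 17 partners of the system (plasminogen with receptors, substrates, cofactors and inhibitors of the system), 10 were tested after OGD with vehicle. Of these, 3 rose at an adjusted p of at most 0.05 and 2 were called higher. Over all 16405 genes tested, 8.39% and 4.06% met these thresholds in either direction, of which 816 and 393 genes were higher. Their median log2 fold change was 0.42, against 0.10 over all genes. Anxa2, whose product annexin A2 binds plasminogen and tissue-type activator at the cell surface, rose from 8.88 to 11.1 FPKM in CONTROL-VEH to 24.9 to 91.1 FPKM in OGD-VEH (log2 fold change 2.42, limma adjusted p = 0.0283). Serpinb2, an intracellular urokinase inhibitor, averaged 0.849 FPKM in OGD-VEH against 0.159 FPKM in the vehicle controls (log2 fold change 1.76, limma adjusted p = 0.0469). It passed the filter only through the OGD-VEH cultures, so the counts and the median of this list are given as a description. The remaining gene past the adjusted threshold was Plgrkt, a plasminogen receptor named here after its values were seen, at 81.1 and 110.5 FPKM on average (log2 fold change 0.44, limma adjusted p = 0.0492). Pdgfra, whose ligand PDGF-CC is a substrate of tissue-type activator and which oligodendrocyte precursors express, was called only in the averaged effect (1.19, limma adjusted p = 0.0112).

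Of 22 extracellular serine proteases, thrombin receptors and coagulation genes, 10 were tested and 2 were called higher in OGD-VEH, with 4.06% of all genes called in either direction and a median of 0.09 in the list. F2r, the thrombin receptor PAR-1, rose from a mean of 16.8 to 41.6 FPKM (log2 fold change 1.197, limma adjusted p = 0.0469), and Pros1, which encodes the anticoagulant protein S, rose from 1.14 to 4.34 FPKM (1.68, limma adjusted p = 0.0427). Prss23 was called in the averaged effect (1.54, limma adjusted p = 0.0144). With TIA, OGD gave 0 calls by limma in this list and 0 in the partners, with 5 of 10 and 2 of 9 tested genes under 0.05 unadjusted, against 19.5% of all genes.

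Of the 59 other serpins only 4 passed the filter, and Serpinb2 and Serpina3n were called higher. Serpinb2 is also counted among the partners, so the counts of these lists are not separate. Since Serpinb2 entered through its OGD-VEH level, this count describes the list and supports nothing further. Serpina3n, a serpin known from reactive astrocytes, rose from 0.799 to 1.38 FPKM in CONTROL-VEH to 2.73 to 10.3 FPKM in OGD-VEH (log2 fold change 2.23, limma adjusted p = 0.0336). In that comparison 0 of the 6 astrocyte markers were called. Serpinh1, a collagen chaperone, was called in the averaged effect at 1.51 (limma adjusted p = 0.0270), with OGD-VEH cultures from 27.2 to 318 FPKM.

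**Figure D5:**
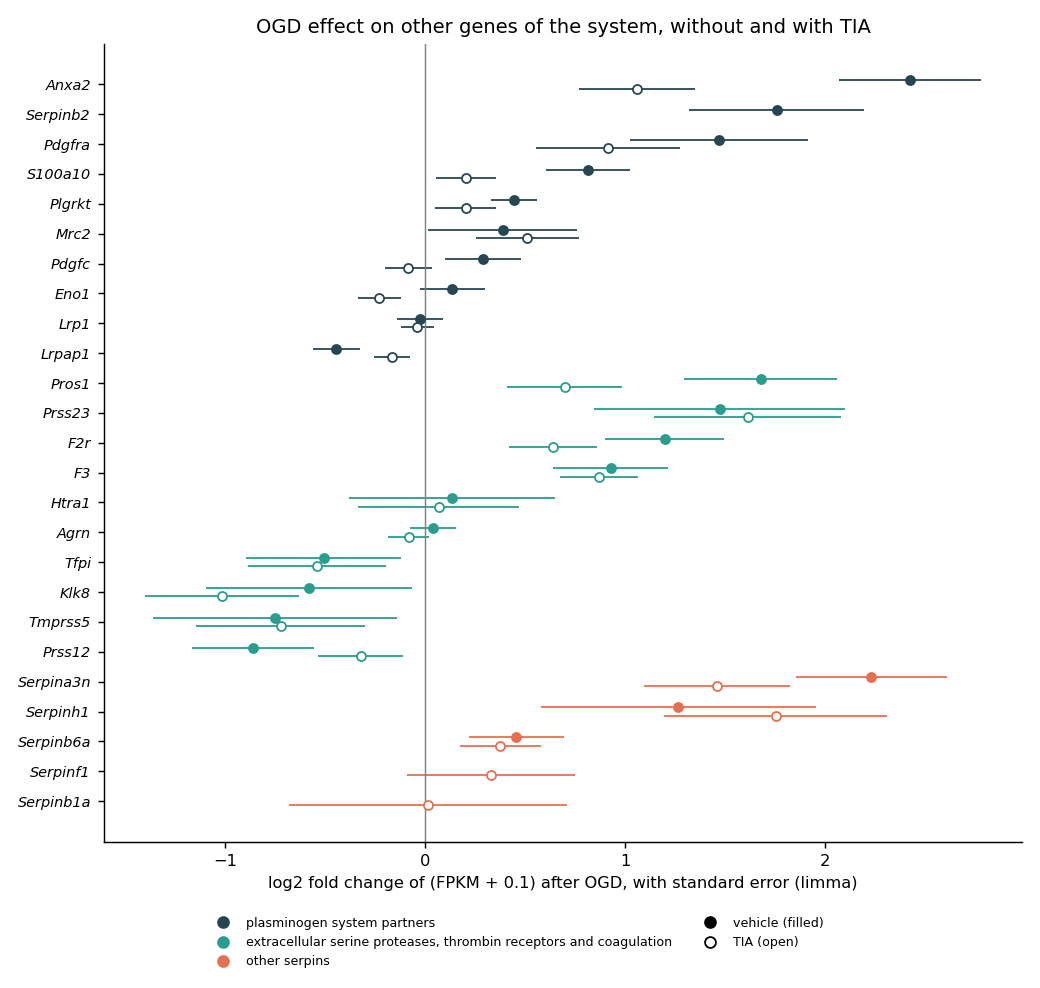
Log2 fold change (limma, bars for the standard error) of OGD with vehicle (filled) and with TIA (open) for the tested genes of the 3 lists, coloured by list. Anxa2 and Serpina3n showed the largest rises with vehicle, at 2.42 and 2.23.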

How the data were processed

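RNA-seq was measured in 16 mouse cortical cultures, grouped by the GEO labels. The deposited table holds isoform FPKM, which the authors made from reads processed on GRCm38 with STAR and FastQC named in the submitters' notes; a TMM scaling is named with the table. Counts were not part of the files used here, so the count test named there (DESeq2) could not be run. Of 135276 lines, 74 had no identifier and were dropped, and 135202 isoforms were summed to 53857 genes through GENCODE M21 (99.89% found). Reads behind a value were estimated from the smallest step of FPKM and cover counting error only.

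limma 3.58.1 in R 4.3.3 (empirical Bayes with trend, Benjamini-Hochberg over all genes tested) was run on log2(FPKM + 0.1) for genes averaging 0.5 FPKM or more across the cultures fitted. Fold changes on this scale understate the change of low genes. Exact permutation tests were two-sided. The pairwise fits used 8 cultures; the interaction and averaged fits used 16. Alternatives were a pseudocount of 1, no filter, median-ratio scaling, array quality weights, 1 fit over 16 cultures, isoforms weighted by length, leaving out each culture, and the longest coding isoform alone, the last chosen after seeing the data. The procedure was tested on simulated data in which every group had the spread of the control cultures. The wider spread of the members after OGD was not simulated, so the calls in OGD groups were not covered by it. Figures used matplotlib 3.10.9 in Python 3.11.15.

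The members and lists were chosen with earlier results of these data known. The text names all members and, per list, the genes called in any comparison (at most 6), or the 2 with the smallest p in the averaged effect, and the 3 most similar genes per member. The values of 1 listed gene are not reported here. Promoters came from RefSeq tables, in which 3 of the 5 members were found.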

Additional observations from a re-analysis of the deposited data

Results flagged for a closer look

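Within the groups of 4, 4 of 20 member-by-group sets had a culture far from the other 3 by Dixon's gap ratio. For independent sets chance gives about 1 in 20, but these are 5 genes read in the same 16 cultures. The flags in OGD-TIA all come from culture 16, so the count cannot be set against chance. Culture 16 of OGD-TIA was the highest of its group for Plat (32.13 FPKM) and for Plaur (1.359 FPKM) and the lowest for Serpini1 (34.08 FPKM). Culture 5 was the highest of CONTROL-TIA for Plat (19.2 FPKM). Without culture 16 the log2 fold changes of OGD-TIA against CONTROL-TIA were 0.17 for Plat, 0.77 for Plaur and -0.14 for Serpini1, and those of OGD-TIA against OGD-VEH were -0.79, -2.15 and 1.10.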

How the results depend on the processing

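No paired analysis was possible because the cultures are numbered 1 to 16 across the groups and share no number. With OGD-VEH against CONTROL-VEH, the number of members called was 1 of 5. It was 2, Plaur and Serpini1, with all 16 cultures in one fit, array quality weights or isoforms weighted by length. It was 0 with no filter or the longest coding isoform alone. Leaving out a culture gave 0 to 3, with 3 (Plat, Plaur and Serpini1) only without culture 9. The number of genes called (666) was 36 with no filter, 1930 with array quality weights, 1415 in the fit of all 16 cultures and 1118 with isoforms weighted by length, and 1 to 2185 when a culture was left out. In the averaged effect, members called (1) were 0 with the longest coding isoform alone or a pseudocount of 1 and 2 with no filter, and 0 to 2 when a culture was left out (0 without culture 10, 12 or 16); genes called (782) fell to 392 with a pseudocount of 1. For OGD-TIA against CONTROL-TIA, genes called (0) were 7 with no filter, 80 with array quality weights, 1 in the fit of all 16 cultures, 65 with isoforms weighted by length and up to 17 with a culture left out. For OGD-TIA against OGD-VEH they were 4 with no filter, 402 with array quality weights, where 1 member was called, and up to 2 with a culture left out. CONTROL-TIA against CONTROL-VEH gave 4 and the interaction 3 with no filter, and the interaction 1 without culture 3. The cause of these shifts was not tested.

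Direction reversed only in CONTROL-TIA against CONTROL-VEH, where log2 fold changes were near 0. With isoforms weighted by length Plat was 0.0123 and Plaur 0.0817, with array quality weights Plau was -0.0787, and with the longest coding isoform alone Plaur was 0.185. With a culture left out the ranges were -0.112 to 0.0642 for Plat, -0.163 to 0.195 for Plau, -0.184 to 0.312 for Plaur and -0.0459 to 0.0426 for Serpine2. Of the members' values under the alternatives, 468 kept their direction and side of the threshold, 16 changed direction, 26 lost the threshold and 10 gained it. Median-ratio scaling moved the median log2 fold change of all genes after OGD from 0.10 to 0.02 and the split of called genes from 393 higher and 273 lower to 332 and 313. Low read numbers limit Plau and Plaur in controls.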
